A study of Mus musculus with 12 samples.

Results

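Voltage-gated sodium channels carry the upstroke of the action potential, and Kv3 potassium channels open late and close fast, which shortens the spike and lets a neuron fire at high rates. Fast-spiking cortical interneurons depend on both, and they acquire their adult channel set over the first postnatal weeks. The 8 genes described here were given by name. The 5 sodium channel genes are *Scn1a*, *Scn2a*, *Scn3a*, *Scn8a* and *Scn9a*, and the 3 Kv3 genes are *Kcnc1*, *Kcnc2* and *Kcnc4*. They are 8 of the 21911 protein-coding genes to which the same measurement was applied. From general knowledge of channel development, *Scn2a* and *Scn3a* were taken as the 2 early channel genes, and *Scn1a*, *Scn8a*, *Kcnc1* and *Kcnc2* as the 4 late channel genes of fast-spiking cells. *Scn9a* and *Kcnc4* were put in neither group.

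Neocortex of *Gad67-GFP* heterozygote mice at postnatal day 2, kept on a mixed CD-1 outcross, was dissociated and sorted by FACS. GFP, driven from the *Gad67* (*Gad1*) locus, labels GABAergic cells, so GFP+ cells were taken as immature cortical interneurons (CINs) and GFP- cells as non-CINs, which hold glutamatergic neurons and glia. Pups of several litters were pooled for a sort, so a replicate is a pool and not an animal. Native ChIP (chromatin cut with micrococcal nuclease, without cross-linking) for H3K27ac, found at active promoters and enhancers, and H3K27me3, the Polycomb mark of silenced or poised genes, was done in 2 biological replicates of each population. The 8 ChIP samples each yielded a broad peak list, and the 4 inputs (2 per population) had no list of their own.

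Each gene was read in a window from 5 kb upstream of its annotated start to its end, on mm10. In each list the number of peaks, the bp they cover and the percentile of the strongest peak were taken. The percentile ranks a peak's fold enrichment over input among all peaks of its own list, where 100 is the highest. The windows ran from 26.3 kb for *Kcnc4* to 201 kb for *Kcnc2*. A value of 0 says that the peak caller made no call, and the reads behind each list were not used here. A lower share of cells with a mark and less of the mark in each cell cannot be told apart in sorted pools. With 2 lists against 2, the smallest *p* of an exact permutation test is 0.333, and with 2 pairs it is 0.5, so no gene was tested alone. A gene was instead counted as covered more in one population when its covered length was higher there in both replicate numbers, and each count is set beside the percentage of all genes that did the same.

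The H3K27ac lists held 46040 to 62505 peaks over 40.8 to 56.3 Mb, and the H3K27me3 lists 36662 to 45081 peaks over 34.5 to 49.8 Mb. The largest H3K27ac list was that of CIN replicate 1. The sort was checked with marker genes. The 5 interneuron markers (*Gad1*, *Gad2*, *Slc32a1*, *Dlx1* and *Lhx6*) held 30976 and 40882 bp of H3K27ac in the CIN lists and 434 and 652 bp in the non-CIN lists, with *Lhx6* at 0 in all 4 lists. The 4 glial markers (*Aldh1l1*, *Olig1*, *Olig2* and *Pdgfra*) held 26644 to 26855 bp in the CIN lists against 33981 to 36188 bp in the non-CIN lists, and none was at 0. *Aldh1l1* held the most of the 4 in every list, and *Pdgfra* went against the sum, with 1899 and 3668 bp in the CIN lists against 981 and 1283 bp in the non-CIN lists. The 4 pyramidal markers reported (*Neurod2*, *Neurod6*, *Slc17a7* and *Emx1*) held 2294 to 4642 bp in the CIN lists against 4074 to 5136 bp in the non-CIN lists, ranges that overlap, with *Neurod2* and *Slc17a7* at 0 throughout. The part of glial or pyramidal chromatin in the channel results was not tested. *Pvalb*, the marker of mature fast-spiking cells, had no H3K27ac peak in any list and 3595 to 4691 bp of H3K27me3 in all 4 H3K27me3 lists. The 5 interneuron markers also had H3K27me3 peaks in all 4 of these lists. They held 63995 and 70094 bp of H3K27me3 in the CIN lists against 69736 and 72195 bp in the non-CIN lists. An H3K27me3 peak in the CIN lists was thus found at genes with and without H3K27ac there.

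The sodium channel genes other than *Scn8a*, 4 in all, lie in one cluster on mouse chromosome 2, in the order *Scn3a*, *Scn2a*, *Scn1a*, *Scn9a*, from position 65457118 to 66634962, a span of 1.18 Mb. *Scn2a* is on the plus strand and the others are on the minus strand. The largest gap, 503 kb, separates *Scn2a* from *Scn1a*. *Scn8a* (chromosome 15, 100869858 to 101045938, plus strand), *Kcnc1* (chromosome 7, 46396497 to 46438704, plus strand), *Kcnc2* (chromosome 10, 112271121 to 112467024, plus strand) and *Kcnc4* (chromosome 3, 107438303 to 107459552, minus strand) stand alone. Positions in the following text are distances from the annotated gene start in the direction of transcription.

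In these windows 3 stretches of H3K27ac were CIN-only, meaning that they were shared by both CIN replicates after peaks 500 bp or less apart were joined, with no overlap in the non-CIN list of the same replicate number. The first, in *Scn1a*, is 256 bp long at 30.8 to 31.0 kb (chr2:66409832-66410087) and covers an internal start site and the exon that begins there. The second, in *Scn2a*, is 130 bp in the first intron at 0.527 to 0.656 kb. The third, in *Scn8a*, is 201 bp in an intron at 53.8 to 54.0 kb. Over all protein-coding genes 6.79% had such a region in the window, and 9.13% of the genes with windows as long as these, against 3 of the 8 channel genes. No channel gene had a non-CIN-only region, which 6.86% of all genes and 10.8% of those with windows as long had. The sequences of 4 intronic stretches with H3K27ac in both CIN lists are shown, to give the bases under the CIN signal: the CIN-only stretches of *Scn2a* and *Scn8a*, the strongest H3K27ac peak of *Scn2a*, and a *Kcnc1* stretch also found in 1 non-CIN list. Each is 200 bp of GRCm38.p6 (mm10), plus strand, centred on the stretch, with CpG dinucleotides in capitals. The first reaches beyond its stretch of 130 bp on both sides.
Scn2a, chr2:65621263-65621462: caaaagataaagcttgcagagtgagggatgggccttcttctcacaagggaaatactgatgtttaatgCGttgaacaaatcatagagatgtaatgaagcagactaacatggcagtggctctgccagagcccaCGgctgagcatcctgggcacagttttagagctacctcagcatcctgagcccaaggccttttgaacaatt
Scn2a, chr2:65668272-65668471: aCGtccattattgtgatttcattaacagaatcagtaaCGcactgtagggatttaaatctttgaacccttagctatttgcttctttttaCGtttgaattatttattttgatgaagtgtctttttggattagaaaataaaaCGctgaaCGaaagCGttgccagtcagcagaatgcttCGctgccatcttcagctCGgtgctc
Scn8a, chr15:100923636-100923835: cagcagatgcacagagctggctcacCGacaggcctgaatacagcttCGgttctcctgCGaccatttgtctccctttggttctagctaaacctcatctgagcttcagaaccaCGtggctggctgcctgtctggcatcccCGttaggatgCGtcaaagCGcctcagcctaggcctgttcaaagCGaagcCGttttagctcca
Kcnc1, chr7:46422631-46422830: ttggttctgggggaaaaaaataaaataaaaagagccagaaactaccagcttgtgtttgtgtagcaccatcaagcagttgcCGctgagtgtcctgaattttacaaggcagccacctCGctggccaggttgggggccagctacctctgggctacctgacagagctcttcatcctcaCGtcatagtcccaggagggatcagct

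The 4 stretches hold 2, 8, 9 and 3 CpG dinucleotides in this order. They were searched on both strands for the cores TAATTA (bound by DLX factors), CTTTGT (SOX) and CTGTCA (MEIS) and for the left and right parts of the RE1 element of the neuronal repressor REST, TCAGCACC and GGACAGC. The *Kcnc1* stretch, which is not CIN-only, held CTGTCA. None of these letters was found in the other three. CTGTCA is in 14.5% of the 35752 H3K27ac stretches shared by both CIN replicates. It is in 19.2% of the 4181 CIN-only regions on the assembled chromosomes. TAATTA was in 5.42% and CTTTGT in 20.8% of the shared stretches, and in 10.9 and 27.4% of the CIN-only regions.

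The promoters differed in CpG content. In RefSeq (GRCm38.p6) the table of 32851 promoters of 300 bases held 7 of the 8 genes, all but *Scn3a*. Observed over expected CpG was 1.05 at the upstream *Scn8a* start and 0.996 at *Kcnc1*, at the 96.4 and 93.8 percentiles of all promoters. It was 0.305 at *Scn1a*, 0.368 at the first *Scn2a* start and 0.265 at the main *Kcnc2* start, against a median of 0.384. The 250 bases before the RefSeq start are shown, 5′ to 3′ on the strand of the gene with CpG in capitals, for 2 CpG-rich promoters with little or no H3K27me3 over them and for 2 CpG-poor promoters that it covered in most lists. CpG content and H3K27me3 did not go together at all of the genes. The *Kcnc4* promoter, at 0.525, was covered in full in all 4 lists, and the first *Scn2a* promoter, at 0.368, in none. The RefSeq starts of *Kcnc4* and of the upstream *Scn8a* promoter lie 653 and 786 bp past the annotated gene starts. These 2 promoters thus lie inside the annotated genes.
Kcnc1, chr7:46396218-46396467: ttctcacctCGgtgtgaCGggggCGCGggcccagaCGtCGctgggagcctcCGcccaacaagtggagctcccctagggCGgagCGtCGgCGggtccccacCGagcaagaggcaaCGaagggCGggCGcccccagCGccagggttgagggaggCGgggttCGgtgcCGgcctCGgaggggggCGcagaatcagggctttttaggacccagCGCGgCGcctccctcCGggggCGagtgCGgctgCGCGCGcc
Scn8a, chr15:100870395-100870644: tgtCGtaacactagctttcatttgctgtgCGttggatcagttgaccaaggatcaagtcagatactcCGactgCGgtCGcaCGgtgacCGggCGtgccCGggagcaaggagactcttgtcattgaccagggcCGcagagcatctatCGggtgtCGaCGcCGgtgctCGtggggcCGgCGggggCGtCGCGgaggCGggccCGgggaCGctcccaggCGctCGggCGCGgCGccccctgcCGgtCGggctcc
Scn1a, chr2:66440838-66441087: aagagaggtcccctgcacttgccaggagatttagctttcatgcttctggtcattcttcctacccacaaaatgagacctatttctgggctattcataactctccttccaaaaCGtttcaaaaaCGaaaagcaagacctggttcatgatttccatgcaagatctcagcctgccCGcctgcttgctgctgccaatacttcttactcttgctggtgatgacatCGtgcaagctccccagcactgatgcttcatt
Kcnc2, chr10:112270871-112271120: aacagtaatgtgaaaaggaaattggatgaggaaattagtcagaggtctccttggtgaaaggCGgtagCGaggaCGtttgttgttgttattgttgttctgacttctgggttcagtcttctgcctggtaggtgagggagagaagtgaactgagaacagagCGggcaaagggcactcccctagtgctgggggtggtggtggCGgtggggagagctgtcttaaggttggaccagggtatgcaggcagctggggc

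Neither mark covered any of the 250 bases at *Kcnc1*, and the nearest H3K27me3 peak lay 171 to 1396 bp away in the 4 lists. At *Scn8a* the nearest H3K27me3 peak lay 215, 491 and 346 bp away in 3 lists and covered 16 bp in non-CIN replicate 2. At *Scn1a* H3K27me3 covered all 250 bases in CIN replicate 2 and both non-CIN lists and none in CIN replicate 1, where it began 309 bp away. At *Kcnc2* it covered all 250 bases in 3 lists and 107 in non-CIN replicate 1.

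**Figure D1:**
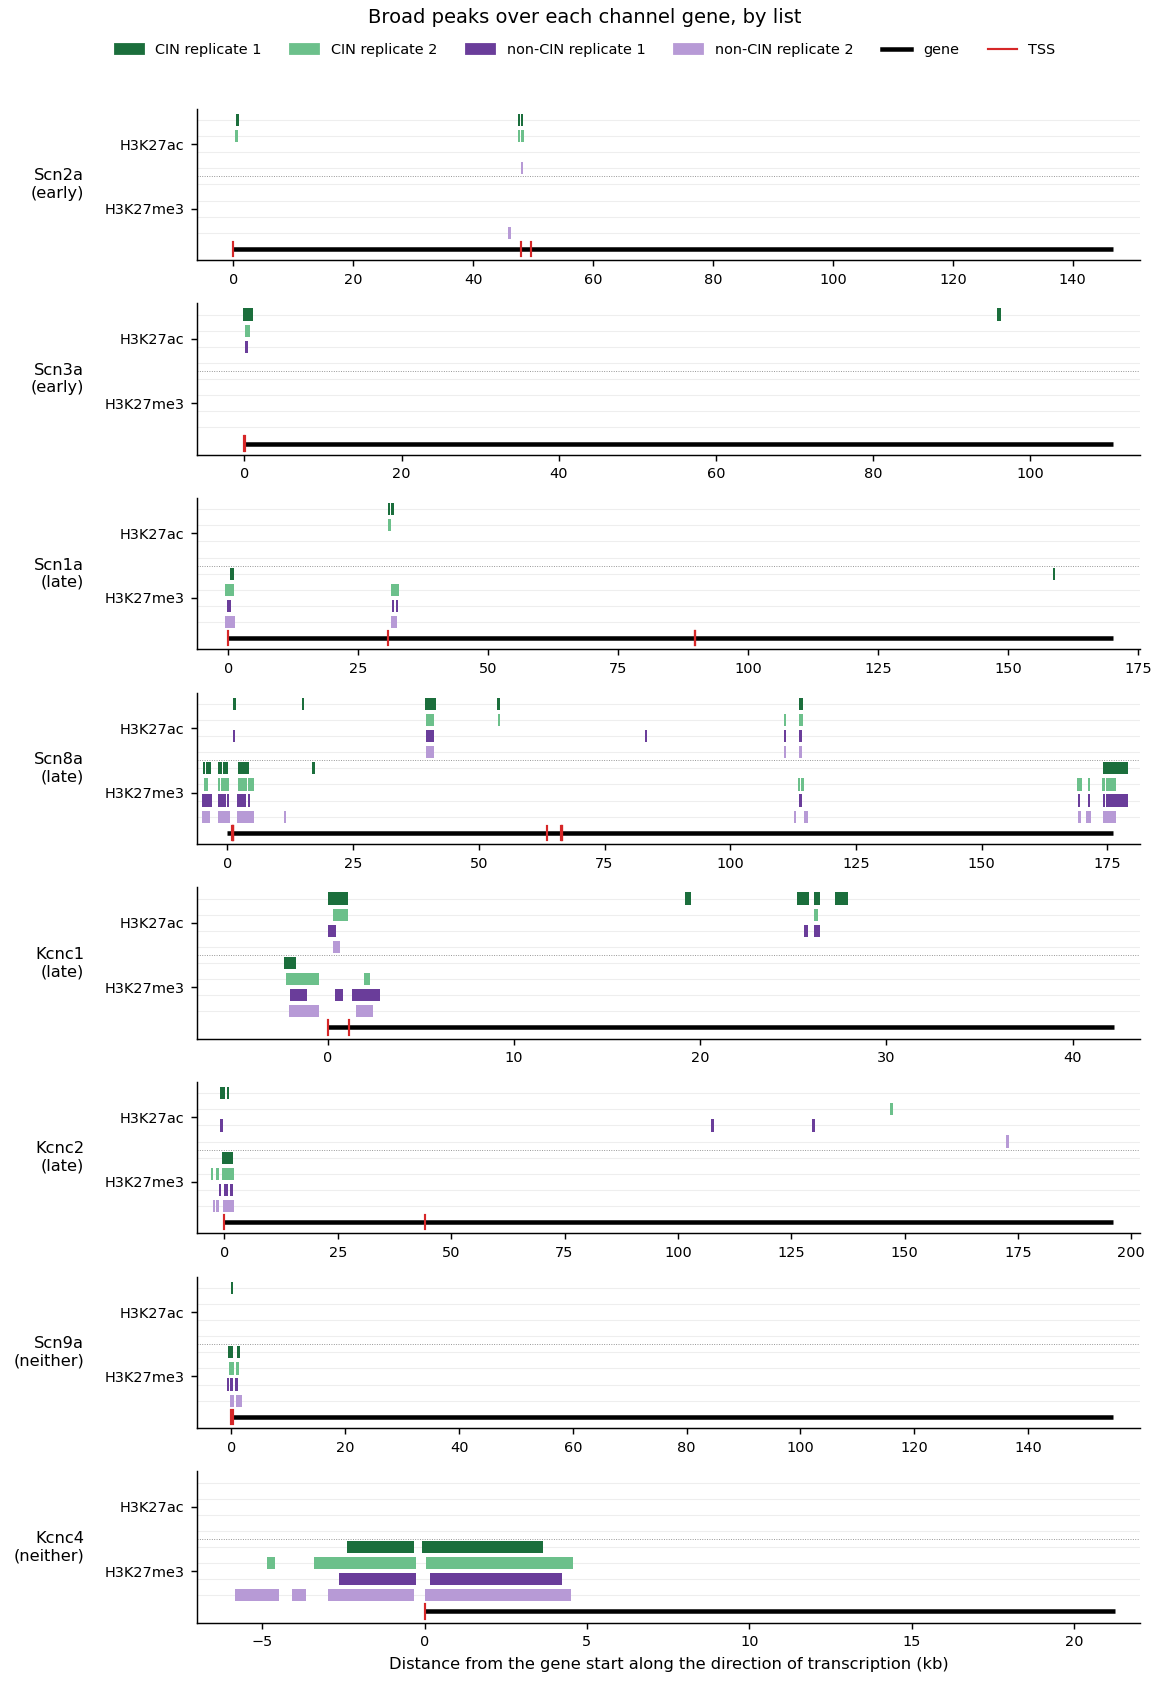
Broad peaks in the window of each of the 8 channel genes. The x axis is the distance from the gene start in kb along transcription, with H3K27ac in the upper and H3K27me3 in the lower 4 rows, 1 row for each list (green CINs, purple non-CINs); the black bar is the gene, red ticks are annotated start sites, and short peaks are drawn at a minimum width. *Scn2a* and *Scn3a* carry almost no H3K27me3, *Kcnc4* carries no H3K27ac, and H3K27me3 at the other genes lies mostly at the start, with further blocks inside *Scn1a*, at 31.3 to 32.8 kb, and at the *Scn8a* end.

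The early channel genes carried H3K27ac at their start sites, mostly in CINs, and almost no H3K27me3. *Scn2a* encodes Nav1.2, the sodium channel of young axons and of pyramidal neurons. Its H3K27ac peaks covered 825 and 828 bp in CIN replicates 1 and 2, against 0 and 277 bp in non-CIN replicates 1 and 2. All of the 7 *Scn2a* peaks in the 4 lists lay within 1 kb of one of its 3 annotated start sites. The strongest was at 47.5 to 47.7 kb, 279 bp before the internal start in CIN replicate 1, and stood at percentiles 82.3 and 67.2 of the CIN lists. Neither non-CIN list overlapped it, but non-CIN replicate 2 had one at 48.0 to 48.3 kb, at percentile 30.1, which joins this stretch once near peaks are merged. It was therefore CIN-only only when peaks were not merged or when weak peaks were left out. The stretch at 0.527 kb was weak in 1 list, at percentiles 58.2 and 0.963 in CIN replicates 1 and 2.

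*Scn3a* encodes Nav1.3, the embryonic and neonatal sodium channel. H3K27ac covered 1832 and 683 bp in CIN replicates 1 and 2, against 202 and 0 bp in non-CIN replicates 1 and 2, so the populations did not overlap. The strongest peaks reached percentiles 86.7 and 88.3 in CINs, the highest H3K27ac percentiles of the 8 genes in both CIN lists, and 49.7 in non-CIN replicate 1. They lay over the start, from -0.221 to 1.10 kb in CIN replicate 1 and from 0.086 to 0.768 kb in CIN replicate 2. *Scn3a* was the one gene of the 8 with no H3K27me3 peak in any list. *Scn2a* had a single H3K27me3 peak, 405 bp at 45.9 to 46.3 kb in non-CIN replicate 2, at percentile 13.6 of that list.

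All 4 late channel genes carried H3K27me3 in all 4 lists, as did the 5 interneuron markers. *Scn1a* encodes Nav1.1, the main sodium channel of adult fast-spiking interneurons. Its H3K27me3 peaks covered 993 and 3185 bp in CIN replicates 1 and 2, against 1439 and 3129 bp in non-CIN replicates 1 and 2, so the replicates of a population differed more than the populations. They lay at the gene start in all 4 lists and, in all but CIN replicate 1, again between 31.3 and 32.8 kb, just past the internal start site. The other peak of CIN replicate 1 was 253 bp long, in an intron at 158.6 to 158.8 kb. H3K27ac at *Scn1a* covered 641 and 256 bp in CINs, at percentiles 51.0 and 7.15, and neither non-CIN list had any. All 3 of its H3K27ac peaks were within 1 kb of the internal start at 30.8 kb, and none was at the gene start. The annotated noncoding gene *Gm13630* overlaps this site on the other strand, and histone peaks carry no strand.

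*Scn8a* encodes Nav1.6, the sodium channel of mature initial segments and nodes. It had the most peaks of both marks, 17 for H3K27ac and 39 for H3K27me3 over the 4 lists. H3K27ac covered 4159 and 2927 bp in CIN replicates 1 and 2, against 3367 and 2504 bp in non-CIN replicates 1 and 2, so it was higher in CINs within each replicate number while the populations overlapped. A broad intronic peak at 39.4 to 41.2 kb was present in all 4 lists at percentiles 71.9, 57.7, 72.5 and 68.8, and another over an exon near 114 kb was also present in all 4. H3K27me3 covered 7467 and 8955 bp in the CIN lists against 8543 and 12060 bp in the non-CIN lists, with top percentiles from 93.2 to 95.9. Most of it formed 3 blocks, from 5 kb upstream to the start, from 1.9 to 5.2 kb, and from 174 kb on, where peaks ran past the gene end at 176 kb, to 179 kb in both lists of replicate 1 and to 177 kb in both of replicate 2.

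*Kcnc1* and *Kcnc2* encode Kv3.1 and Kv3.2, the Kv3 channels of fast-spiking cells. H3K27ac at *Kcnc1* covered 3007 and 1015 bp in CIN replicates 1 and 2, against 991 and 342 bp in non-CIN replicates 1 and 2. Both CIN values lay above both non-CIN values, although CIN replicate 2 and non-CIN replicate 1 were nearly equal. H3K27me3 at *Kcnc1* covered 645 and 2104 bp in the CIN lists against 2852 and 2466 bp in the non-CIN lists, and here the non-CIN values were both higher. The H3K27ac peak just inside *Kcnc1* reached from 0.284 to 1.10 kb in both CIN lists, where neither CIN list had H3K27me3. In CIN replicate 2 H3K27me3 lay on both sides of it, at -2.21 to -0.45 kb and at 1.93 to 2.27 kb.

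H3K27ac at *Kcnc2* covered 1508 and 310 bp in CIN replicates 1 and 2, against 1457 and 413 bp in non-CIN replicates 1 and 2. Both replicate 1 lists were high and both replicate 2 lists low, and no H3K27ac stretch was shared by both replicates of either population. H3K27me3 covered 2515 and 3821 bp in the CIN lists against 1849 and 3447 bp in the non-CIN lists. It was higher in CINs in both replicate numbers, by 666 and 374 bp, although the populations overlapped. A peak over the *Kcnc2* start was present in all 4 H3K27me3 lists, with top percentiles for the gene of 90.2, 91.4, 96.2 and 90.1. In CIN replicate 1, 982 bp of *Kcnc2* lay under peaks of both marks, the most at any of the 8 genes.

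The remaining genes had little H3K27ac. *Scn9a* encodes Nav1.7, a channel best known from peripheral sensory neurons. Its H3K27ac was 393 bp in CIN replicate 1 alone, and its H3K27me3 was 1390 and 1397 bp in the CIN lists against 1212 and 1711 bp in the non-CIN lists, with a peak over a start site in each list. *Kcnc4* encodes Kv3.4, a fast-inactivating Kv3 channel. It had no H3K27ac peak in any list and the densest H3K27me3 of the 8 genes, 5782 and 7887 bp in the CIN lists against 6436 and 8114 bp in the non-CIN lists, which is 22.0 to 30.9% of its window. The top percentiles were 95.9 to 97.2, and the peaks lay on both sides of the start, from -2.4 to 3.64 kb in CIN replicate 1, where they covered least.

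**Figure D2:**
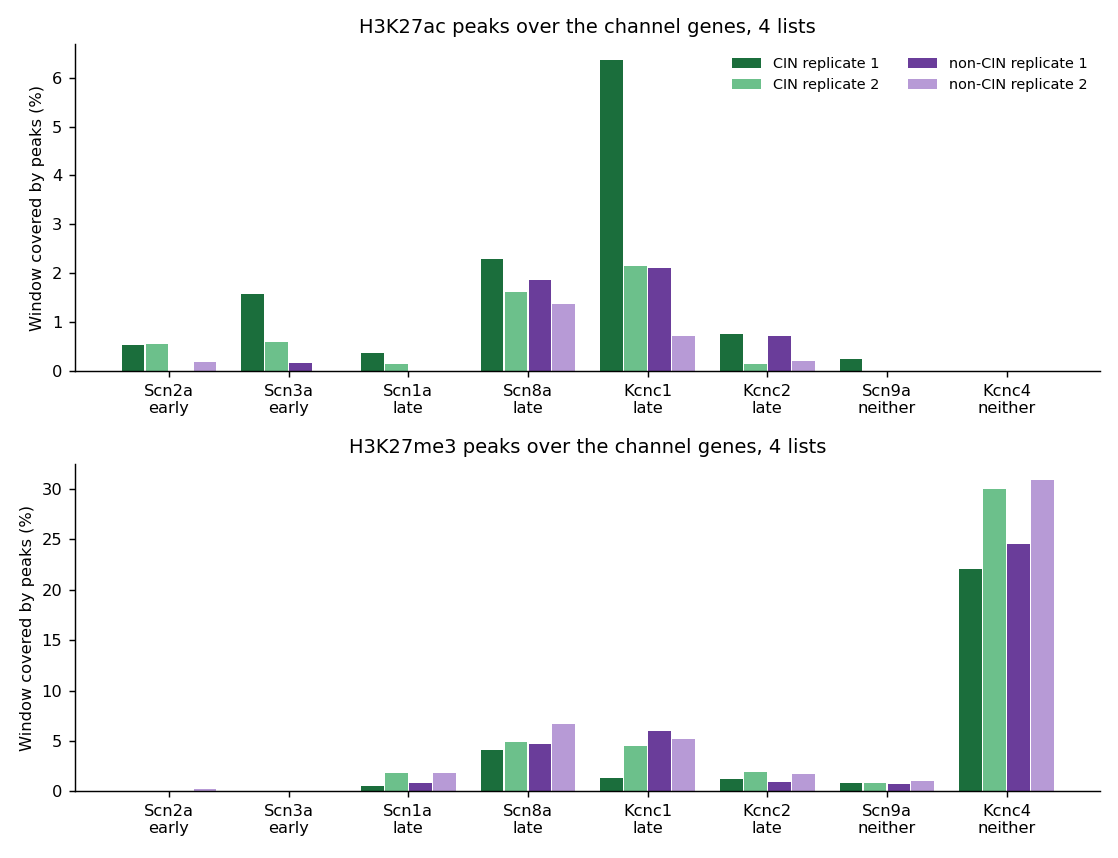
Percent of each gene's window covered by H3K27ac (top) and H3K27me3 (bottom) peaks, with 1 bar for each of the 4 lists of a mark and the class under each gene name. H3K27ac bars are tallest for *Kcnc1* in CIN replicate 1 at 6.37%, and H3K27me3 bars for *Kcnc4* at 22.0 to 30.9%.

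Set against one another, late channel genes were covered by H3K27me3 over more of their windows than early channel genes in every list. The medians of the late genes were 1.31 and 3.18% in CIN replicates 1 and 2 and 2.82 and 3.51% in non-CIN replicates 1 and 2. The medians of the early genes were 0, 0, 0 and 0.134%, and the ranges of the 2 classes did not overlap in any list. The early minus late difference was -2.24 ± 1.32 percentage points in CINs and -3.10 ± 0.391 in non-CINs (SD, n = 2 lists). The median over all protein-coding genes was 0 in each list. Over all 8 genes, 6 had an H3K27me3 peak in all 4 lists, against 21.1% of all genes and 24.9% of the 8771 genes with windows of 26.3 to 201 kb. A peak over a start site in all 4 H3K27me3 lists was found at *Scn9a* and *Kcnc2*, against 5.22% of all genes.

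For H3K27ac the early minus late difference was small against the spread of the genes, -0.388 ± 0.100 percentage points in CINs and -0.789 ± 0.588 in non-CINs (SD, n = 2 lists), and the ranges of the classes overlapped in all 4 lists. The direction in CINs turned when 2.5 kb on both sides of the gene start replaced the window, to 4.63 points more in the early genes. Both early genes had H3K27ac in both CIN lists and 1 of them in each non-CIN list. All 4 late genes had H3K27ac in both CIN lists and 3 of them in each non-CIN list, *Scn1a* being the one without. Only *Scn8a*, *Kcnc1* and *Kcnc2* had an H3K27ac peak in all 4 lists, 3 of 8 genes against 56.8% of all genes and 71.6% of those with windows as long. No channel gene had an H3K27ac peak over a start site in all 4 lists, which 33.9% of all genes had.

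**Figure D3:**
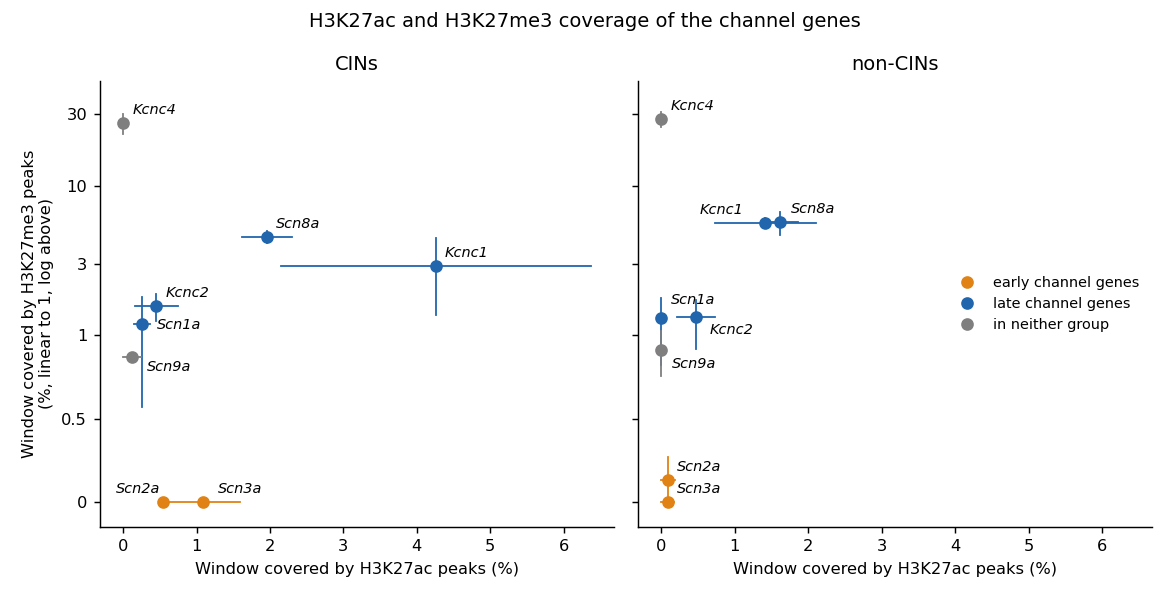
Percent of the window covered by H3K27ac (x axis) and H3K27me3 (y axis, linear to 1 and logarithmic above) in CINs (left) and non-CINs (right). Points are means of 2 lists and lines run from the lower to the higher list; early genes (orange) lie at or near 0 for H3K27me3 and late genes (blue) above it in both populations.

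Between the populations, each channel gene with the same direction of H3K27ac in both replicate numbers was covered more in CINs. *Scn1a*, *Scn2a*, *Scn3a*, *Scn8a* and *Kcnc1* were covered more in CINs in both replicate numbers, 5 of the 7 genes with a peak, against 29.8% of the 14650 genes with a peak and 29.1% of those with windows as long. None was covered more in non-CINs, against 29.2 and 32.1%. Of the 5, all but *Scn8a* had CIN lists above both non-CIN lists, against 18.1% of genes, and the opposite held for none of the channel genes and 18.0% of genes. Mean differences in covered length, CIN minus non-CIN, were 449 bp for *Scn1a*, 688 bp for *Scn2a*, 1157 bp for *Scn3a*, 608 bp for *Scn8a* and 1345 bp for *Kcnc1*. The 5 genes include both early and 3 of the 4 late genes, so the difference was not confined to one class. The top percentile was higher in CINs in both replicate numbers at *Scn1a*, *Scn2a*, *Scn3a* and *Kcnc1*, against 33.2% of genes, and in non-CINs at none, against 24.6%. The same 5 genes were covered more in CINs when covered length was put on the size of each list, where *Kcnc2* was covered more in non-CINs. *Scn1a* was no longer covered more in CINs in both replicate numbers when −log10 *q* of at least 4 was required, where *Kcnc2* joined the genes covered more in CINs, and with the strongest 30000 peaks, where it had no H3K27ac in any list. Within 2.5 kb of the gene start 3 genes were covered more in CINs, *Scn2a*, *Scn3a* and *Kcnc1*, without *Scn1a* and *Scn8a*. Apart from *Scn8a* and *Kcnc1*, no gene had more than 1832 bp of H3K27ac in any list, and their covered lengths rest on at most 3 peaks in a list.

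H3K27me3 was mixed. *Scn8a*, *Kcnc1* and *Kcnc4* were covered more in non-CINs in both replicate numbers, 3 of 7 genes, against 25.4% of the 8931 genes with a peak and 26.8% of those with windows as long. The direction of *Kcnc4* turned when each list was scaled to the mean list size, to 408 bp more in CINs, and within 2.5 kb of the start, to 39.5 bp more in CINs. *Kcnc2* was covered more in CINs, 1 of 7, against 16.7 and 15.9%. It was not called without the replicate block, with −log10 *q* of at least 4, in the gene body alone or with peaks 500 bp or less apart merged, where the difference fell from 520 to 83 bp. *Kcnc1* was the one gene whose non-CIN lists both lay above the CIN lists, which 11.1% of genes did, and no gene showed the opposite, which 7.33% did. The top percentile was higher in CINs at *Scn8a* and *Scn9a*, against 16.7% of genes, and in non-CINs at *Kcnc1*, against 24.1%. *Scn8a* thus had the longer H3K27me3 coverage in non-CINs and the higher top percentile in CINs, where it was 93.5 and 95.9 against 93.2 and 94.9, differences smaller than that between the CIN replicates. Of the 8, *Kcnc1* was the one gene with more H3K27ac in CINs and more H3K27me3 in non-CINs by both measures. This pattern was also found outside the 8, as at *Scn2b*. With −log10 *q* of at least 4 *Kcnc1* was called by neither measure of H3K27me3.

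**Figure D4:**
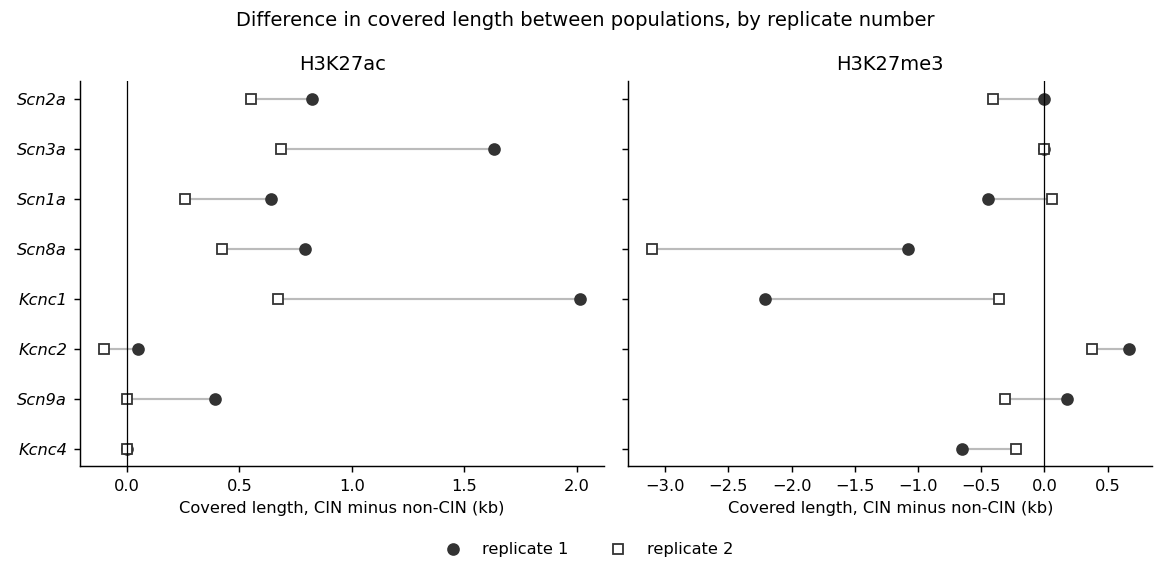
Covered length in CINs minus non-CINs (kb) of H3K27ac (left) and H3K27me3 (right) for each gene, with replicate 1 as filled circles and replicate 2 as open squares. Both replicates lie above 0 for H3K27ac at *Scn2a*, *Scn3a*, *Scn1a*, *Scn8a* and *Kcnc1*; for H3K27me3 both lie below 0 at *Scn8a*, *Kcnc1* and *Kcnc4* and above 0 at *Kcnc2*.

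The 3 CIN-only stretches rest on peaks near the middle of the CIN replicate 1 list and low in the CIN replicate 2 list. The percentiles of the peaks over them were 40.3 and 7.15 in *Scn1a*, 58.2 and 0.963 in *Scn2a*, and 61.5 and 16.4 in *Scn8a* in CIN replicates 1 and 2. None of the 3 was left when −log10 *q* of at least 4 or the strongest 30000 peaks of each list were required. With −log10 *q* of at least 4 the CIN-only stretches were those of *Scn2a* at 47.5 kb and of *Kcnc1* at 0.284 to 1.10 kb, and with the strongest 30000 peaks *Scn3a* at 0.086 to 0.768 kb was added. Weaker non-CIN peaks overlapped the *Kcnc1* stretch, at 0.031 to 0.434 kb in replicate 1 and 0.307 to 0.648 kb in replicate 2. At *Scn3a* non-CIN replicate 1 had a peak at 0.141 to 0.342 kb. Both stretches were CIN-only only because these non-CIN peaks were left out. With a reciprocal overlap of 50% there was none.

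Other channel genes and channel partners, 23 in all, were read in the same way. H3K27ac covered more in CINs at 9 and in non-CINs at 1 of the 16 with a peak, against 29.8 and 29.2% of all genes with a peak. H3K27me3 covered more in CINs at 3 and in non-CINs at 10 of the 21 with a peak, against 16.7 and 25.4%. *Scn2b* and *Scn3b*, which encode sodium channel beta subunits, were both covered more by H3K27ac in CINs, with 601 and 416 bp for *Scn2b* and 2189 and 1088 bp for *Scn3b*, against 322 and 0 bp and 537 and 0 bp in non-CINs. H3K27me3 at *Scn2b* covered 0 and 4109 bp in CIN replicates 1 and 2, against 2513 and 4320 bp in non-CIN replicates 1 and 2. Its top H3K27me3 percentile was also higher in non-CINs in both replicate numbers. *Scn4b*, the beta subunit linked to resurgent current, had no H3K27ac peak and 10749 to 15776 bp of H3K27me3 in the 4 lists. *Kcna2*, a Kv1 channel of axons, was the gene with more H3K27ac in non-CINs, 6037 and 6426 bp against 4458 and 4135 bp. Among the 5 sodium channel alpha genes outside the 8, 2 had any H3K27ac peak and none differed in both replicate numbers.

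By the 8 percent-of-window values, and among genes with windows between 0.5 and 2 times as long, the most alike gene was *Gria3* for *Scn2a* at a Euclidean distance of 0.257 percentage points over 8 lists. It was *Tg* for *Scn3a* at 0.290, *Trpc6* for *Scn9a* at 0.472, *Arhgap44* for *Kcnc2* at 0.509 and *Syt9* for *Scn1a* at 0.540. The distances were larger for the genes with more coverage, 1.85 from *Scn8a* to *Sptb*, 2.54 from *Kcnc4* to *Tbx21* and 2.72 from *Kcnc1* to *Mgat5b*.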

How the data were processed

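The authors aligned the reads of each sample to mm10 with BWA 0.7.15, removed poorly mapped ones with samtools and called broad peaks over matched input with MACS2 (the study's methods and the submitters' processing notes give different versions). The deposited lists give for each peak a score, the fold enrichment (a ratio of ChIP to input signal), and −log10 *p* and −log10 *q* values, all as the authors' peak caller wrote them. None is a read count, so depth is unknown and no count test was run. Fold enrichment was ranked within its list, and score and *p* values were not used further. Gene windows came from the GENCODE vM21 basic annotation. Replicates were compared within their number, as in the study's methods. The correlation of replicate 1 minus 2 differences between the populations, over genes, was 0.278 for H3K27ac and 0.445 for H3K27me3. The 8 genes, the lists of other genes and the markers were chosen with earlier results of these data known. The genes named are the 8, their most alike genes, markers, and other channel genes given by list; *Scn2b*, *Scn3b*, *Scn4b* and *Kcna2* were named after their values were seen. Some markers and channel genes are not reported here. Alternatives were other peak thresholds, merging, list size, gene body, start-site window, no replicate block and single replicates. Python 3.11.15, NumPy 2.4.6, matplotlib 3.10.9 and bedtools 2.31.1 were used. On simulated data all 200 planted differences were recovered over 21911 genes, and covered lengths equalled those of bedtools. Each planted difference was a whole peak in both lists of CINs or of non-CINs, in a window with no other peak. The recovery therefore checked the code alone, and smaller differences and false calls were not tried.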

Additional observations from a re-analysis of the deposited data

How the results depend on the processing

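Of 120 repeats of the main results, 88 changed by at most 1.5 times or by less than the spread between replicates, and 1 turned. Without the replicate block the H3K27me3 counts fell to 0 genes covered more in CINs, 1 covered more in non-CINs, and 0 with a higher top percentile in either population. With −log10 *q* of at least 4, 0 genes had more H3K27me3 in CINs and 0 a higher top percentile in non-CINs, and the early minus late differences were -0.518 for H3K27ac in CINs and -1.96 for H3K27me3 in non-CINs. With the strongest 30000 peaks 2 genes had more H3K27me3 in CINs. Per Mb of list, 1 gene had more H3K27ac in non-CINs and 2 more H3K27me3 in CINs. With merged peaks 0 genes had more H3K27me3 in CINs. In the gene body alone 1 gene had more H3K27ac in non-CINs, 0 more H3K27me3 in CINs and 1 a higher H3K27me3 percentile in CINs, and the H3K27me3 early minus late difference in non-CINs was -1.72. Within 2.5 kb of the start 3 genes had more H3K27ac in CINs and 2 more H3K27me3 in CINs. There the early minus late differences were 4.63 and -2.13 for H3K27ac in CINs and non-CINs, and -34.3 and -48.4 for H3K27me3. With a reciprocal overlap of 50%, 0 CIN-only stretches remained. Leaving out 1 replicate gave 5 to 7 genes with more H3K27ac in CINs, 0 to 1 in non-CINs, 2 with more H3K27me3 in CINs and 4 to 5 in non-CINs. The H3K27ac percentile was then higher in non-CINs at 1 gene, and the H3K27me3 percentile at 3 to 4 genes in CINs and 3 in non-CINs. The CIN minus non-CIN difference of *Kcnc4* H3K27me3 turned, to 408 bp when each list was scaled to the mean list size and to 39.5 bp within 2.5 kb of the start. Of 128 repeats of single genes, 106 moved by less than the spread or not at all. The cause of these changes was not tested. Leaving out 1 replicate always moves a mean over 2 replicates by less than this spread. Such repeats of single genes and of early minus late differences could therefore only count as unchanged. The same holds for a gene at 0 in every list of a mark, so both counts of unchanged repeats include fixed ones.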

Other observations

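Of 7 partner genes of the channels, 5 held H3K27ac stretches found in 1 population. *Ank3*, which encodes the initial segment scaffold ankyrin-G, had 2 CIN-only stretches at 237 and 321 kb from its start and 1 non-CIN-only stretch at 490 kb, the last at percentiles 64.0 and 73.5 of the non-CIN lists. *Fgf12*, *Fgf13* and *Fgf14* encode intracellular sodium channel partners. *Fgf12* had 2 CIN-only stretches, the stronger at percentiles 72.2 and 42.2, *Fgf14* had 1, and *Fgf13* had 1 CIN-only and 1 non-CIN-only stretch. *Nfasc*, an adhesion molecule of the initial segment and of oligodendrocytes, had 2 non-CIN-only stretches, of 793 and 35 bp. Over all protein-coding genes 6.79% had a CIN-only and 6.86% a non-CIN-only stretch in the window, and 9.13 and 10.8% of those with windows as long as the channel genes'. All of the stretches named here lie in introns of long genes, and the number of stretches was not set against gene length.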
